A study of Mus musculus with 12 samples.

Results

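The 10 genes described here are a small set from the transforming growth factor beta (TGF-beta) and bone morphogenetic protein (BMP) pathways, chosen by symbol from the 23413 genes of the count table. They are the ligand gene Tgfb1, the receptor genes Tgfbr1 and Tgfbr2, the Smad genes Smad3, Smad6 and Smad7, the inhibitor genes Id1, Id2 and Id3, and Tgfbi, a gene named for its induction by TGF-beta. RNA-seq was done on alveolar macrophages, the phagocytes that live in the lumen of the alveoli, washed from mouse lungs. By their labels the 12 libraries form 6 groups of 2. Wild-type (WT) cells were cultured for 24 h with 50 nM vitamin D3 or without it. Fresh cells came from mice labelled VDR knockout (KO) and from WT mice, at 10 and at 4 weeks of age. The labels do not give the knockout allele or strategy, the age of the mice whose cells were cultured, the sex, or whether animals were pooled, and the p-values measure only how far these libraries spread, some of which may be technical.

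TGF-beta ligands are secreted in a latent form and, once freed, bring together a type II and a type I receptor kinase, here encoded by Tgfbr2 and Tgfbr1. The type I receptor phosphorylates Smad2 and Smad3, which enter the nucleus with Smad4, while BMP receptors use Smad1, Smad5 and Smad9. Smad6 and Smad7 are inhibitory Smads that feed back on the receptors, and Smad6 acts mainly on the BMP branch. Id proteins lack a DNA-binding domain and hold E proteins, a class of basic helix-loop-helix transcription factors, off DNA, and their genes are classical BMP targets. In the lung, alveolar macrophages make TGF-beta and respond to it, and this signalling is needed for their development and upkeep.

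The promoter sequences of Tgfbr2, Id2, Id3 and Tgfbi are shown because these 4 members changed with vitamin D3. Each is the 250 bases upstream of the annotated start, read 5′ to 3′ on the gene's strand from RefSeq windows of build GRCm38.p6, at chr9:116175364-116175613 on the minus strand for Tgfbr2, chr12:25096093-25096342 on the minus strand for Id2, chr4:136143572-136143821 on the plus strand for Id3 and chr13:56609336-56609585 on the plus strand for Tgfbi. Capitals mark matches on either strand to CAGAC, a Smad-binding sequence, or to GGCGCC, a GC-rich sequence bound by Smads of the BMP branch.
Tgfbr2: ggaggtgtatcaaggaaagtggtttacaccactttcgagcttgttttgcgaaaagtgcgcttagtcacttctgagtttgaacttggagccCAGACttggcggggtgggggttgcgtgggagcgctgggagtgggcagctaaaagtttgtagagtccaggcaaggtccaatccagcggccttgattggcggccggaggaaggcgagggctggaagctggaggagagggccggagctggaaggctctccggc
Id2: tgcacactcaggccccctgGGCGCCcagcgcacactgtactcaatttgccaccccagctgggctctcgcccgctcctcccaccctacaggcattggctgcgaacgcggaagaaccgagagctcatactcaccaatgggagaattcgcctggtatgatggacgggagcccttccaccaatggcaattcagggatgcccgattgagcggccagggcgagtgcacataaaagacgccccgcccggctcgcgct
Id3: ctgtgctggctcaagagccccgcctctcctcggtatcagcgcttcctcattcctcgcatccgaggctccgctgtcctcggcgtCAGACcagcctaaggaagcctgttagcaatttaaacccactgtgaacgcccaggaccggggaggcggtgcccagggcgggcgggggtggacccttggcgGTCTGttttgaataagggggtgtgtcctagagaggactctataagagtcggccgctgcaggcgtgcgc
Tgfbi: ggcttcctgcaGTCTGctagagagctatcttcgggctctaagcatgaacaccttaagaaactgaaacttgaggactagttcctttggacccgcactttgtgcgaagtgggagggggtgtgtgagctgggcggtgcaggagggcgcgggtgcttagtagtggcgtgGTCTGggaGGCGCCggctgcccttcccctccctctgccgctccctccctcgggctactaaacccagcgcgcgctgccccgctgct
CAGAC stood once in the Tgfbr2 window and 2 times each in those of Id3 and Tgfbi, and GGCGCC once each in those of Id2 and Tgfbi. Of all 32851 promoter windows of this length, 42.2% held CAGAC and 9.59% held GGCGCC, so a match to CAGAC is common. Windows of Id1 and Smad7 were not searched, as the search left out part of the windows by chromosome and used those of 8 of the 10 members. Whether Id1 and Smad7 hold a match is not known from it. In those 8, no match was found to the palindrome GTCTAGAC (in 0.167% of all windows) or to the half-sites AGGTCA (14.0%) and GGTTCA (8.85%) of the kind the vitamin D receptor binds. A match is only a string of letters in this window, and the expression files do not report binding.

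Total counts ranged from 10409572 in KO replicate 2 at 10 weeks to 23233674 in vitamin D3 replicate 1, so that 1 count was worth 0.0483 to 0.0903 CPM, the normalised read count scaled to the effective size of its library. Replicates of every group differed by more than sampling noise. Vdr itself was read in every library labelled KO (31.2 to 84.2 CPM, against 56.5 to 127 CPM in fresh WT libraries), and since the deleted part of the gene is not stated, this sum over the gene checks the labels only in part. In the 10-week groups, 1 library labelled KO (replicate 1) carries a description code of WT, and 1 labelled WT (replicate 2) a code of KO. The genotype labels are used here, and results that change when this pair is exchanged are named. For Tgfbr2, the log2 values that the authors deposited, put in groups as their columns are named, gave a 10-week difference of 0.26, beside 0.28 by the genotype labels and -0.03 with the pair exchanged. Both replicate 2 libraries at 10 weeks had Xist, the RNA of the inactive X chromosome, at 787 CPM or more, against under 1 CPM in the other 10. Of 12 alveolar macrophage markers, 11 were in the table and none was at 0 counts. Their summed level was 12099 to 13999 CPM with vitamin D3, 12360 to 12367 CPM in untreated culture and 23039 to 42785 CPM in fresh cells. Chi3l3 alone was at 5044 to 5744 CPM in culture and at 14993 to 34323 CPM in fresh cells. Of the 11 markers, 2 were higher and 6 lower in untreated culture than in WT cells of either age.

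All 10 members passed the filter on low counts and were tested with 12748 genes in 1 edgeR quasi-likelihood fit, with p-values adjusted over all of these genes and a threshold of 0.05. With vitamin D3, 4 of the 10 members changed, Tgfbr2 upward and Id2, Id3 and Tgfbi downward, in a comparison where 10.6% of all genes passed (5% higher and 5.63% lower). In untreated culture against fresh WT cells, 7 members changed at either age of the fresh cells (5 higher and 2 lower), where 42.4% of all genes passed against 10-week cells (21.2% higher and 21.2% lower) and 39.7% against 4-week cells (20.1% higher and 19.5% lower). In cells labelled KO against WT, 0 members passed at 10 weeks (background 0.11%) and 1, Id3, was lower at 4 weeks (background 0.667%, of which 0.196% lower). At 10 weeks, 3 members had an unadjusted p under 0.05 (9.76% of all genes did) and 1 (Id3) passed with DESeq2 (1.16% of its genes did). Averaged over both ages Id3 was again the 1 member that passed (background 0.996%, of which 0.384% lower). Between 10 and 4 weeks, 2 members were higher in cells labelled KO (Tgfbr1 and Id2, background 9.73%, of which 4.89% higher). In WT cells 0 passed (background 2.11%), while 2 had an unadjusted p under 0.05 (background 18.6%) and 0 passed with DESeq2 (background 5.53%). The difference of the KO effect between the ages passed for 0 members (background 0.188%), with 1 at an unadjusted p under 0.05 (background 8.65%) and 0 with DESeq2 (background 0.565%).

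The median log2 fold change of the 10 members was -0.58 with vitamin D3, beside 0 over all genes tested. It was 0.35 and 0.51 for untreated culture against fresh WT cells at 10 and 4 weeks, beside -0.02 for all genes in both. For KO against WT it was -0.09 at 10 weeks and -0.08 at 4 weeks, beside -0.01 for all genes. Groups of 2 libraries did not overlap for 9 members with vitamin D3, where 48.9% of all genes did not overlap, and for 7 members in KO against WT at 10 weeks (40.6% of all genes) and 5 at 4 weeks (48.6%).

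**Figure D1:**
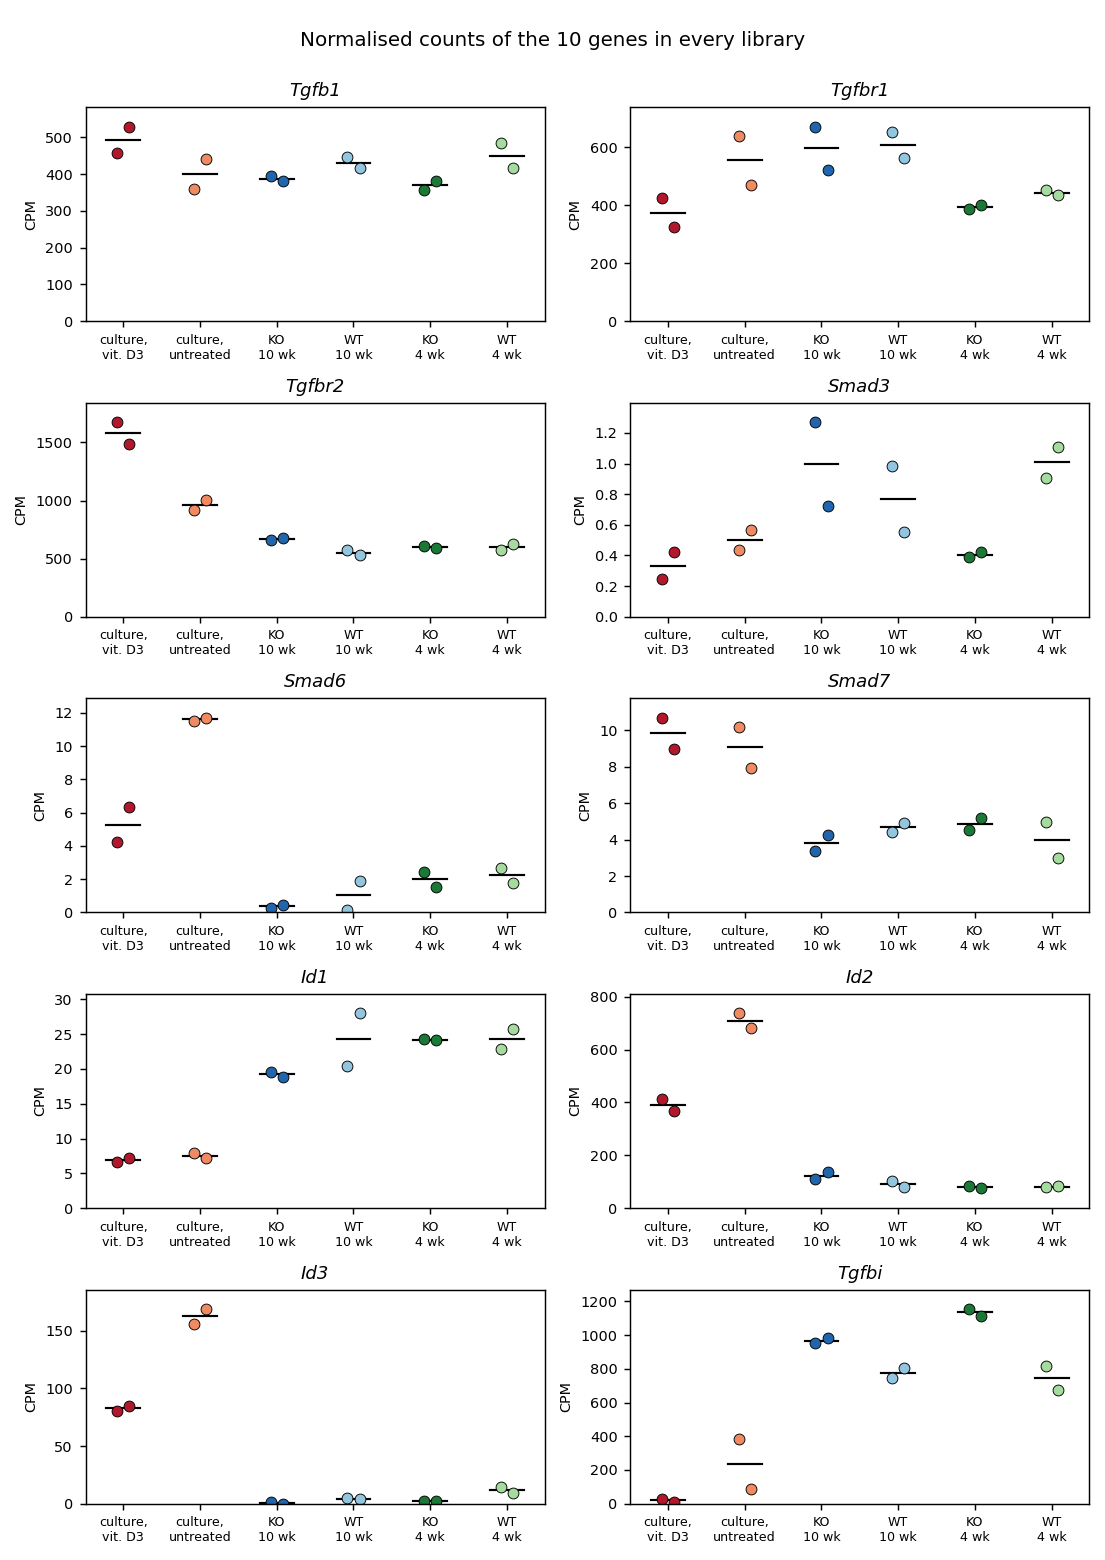
Normalised read counts in CPM (linear axis from 0) of the 10 members in each of the 12 libraries, 1 panel per gene and 1 point per library, with short lines at the group means. Id2 and Id3 were highest in untreated culture, Tgfbr2 highest with vitamin D3, and Tgfbi lowest in both cultures.

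Tgfb1, the ligand gene, passed in no comparison. It was at 458 and 529.9 CPM with vitamin D3, against 360.1 and 442 CPM in untreated culture. Cells labelled KO had 395 and 381 CPM, against 446 and 417 CPM in WT cells, at 10 weeks, and 358 and 381 CPM, against 485 and 416 CPM, at 4 weeks. All 4 libraries labelled KO lay below all 4 fresh WT libraries, which was so for 2.28% of all genes. The log2 fold change over both ages was -0.22 ± 0.09 (SE) and missed the threshold (edgeR adjusted p = 0.311). With vitamin D3 it was 0.30 ± 0.12 and missed it as well (edgeR adjusted p = 0.163). Every pair of neighbouring groups in the order of its level overlapped.

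The 2 receptor genes differed in direction with vitamin D3, and 1 passed. Tgfbr2, the type II receptor that binds the ligand first, was at 1674 and 1488 CPM with vitamin D3, against 922 and 1001 CPM in untreated culture. Both treated libraries lay above both untreated ones. It was 1.64-fold higher (log2 0.72 ± 0.10, edgeR adjusted p = 0.000788), which passed in all 12 alternatives. Within the pairs of libraries with neighbouring titles it was 1.82-fold and 1.49-fold. The first pair joins replicate 1 of both groups, and the other joins vitamin D3 replicate 3 to untreated replicate 2. By these labels the other pair is not matched cells of the same source, here and for the genes below.

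Tgfbr1, the type I receptor that carries the signal into the cell, was at 425 and 325 CPM with vitamin D3, against 640.4 and 471 CPM in untreated culture. The groups did not overlap, but the log2 fold change of -0.57 ± 0.17 missed the threshold (edgeR adjusted p = 0.0583), and it passed in 6 of 12 alternatives, with adjusted p-values from 0.00014 to 0.38 over these. The CPM of Tgfbr2 over that of Tgfbr1 was 3.94 and 4.58 with vitamin D3 and 1.44 and 2.13 in untreated culture. In fresh cells it was 0.983 and 1.3 in KO and 0.879 and 0.943 in WT at 10 weeks, and 1.57 and 1.47 in KO and 1.27 and 1.44 in WT at 4 weeks. CPM is not corrected for transcript length, so this ratio can be compared between libraries but is no ratio of molecules.

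Tgfbr2 was also higher in untreated culture than in fresh WT cells, which had 573 and 530.1 CPM at 10 weeks and 574 and 623 CPM at 4 weeks. The log2 fold changes were 0.80 ± 0.10 (edgeR adjusted p = 6.63e-05) against 10 weeks and 0.68 ± 0.10 (edgeR adjusted p = 0.000221) against 4 weeks. These comparisons and the one with vitamin D3 share the untreated libraries. In fresh KO cells Tgfbr2 was at 660.4 and 678 CPM at 10 weeks, above both WT libraries, and at 607 and 589 CPM at 4 weeks, within the WT range. Its 10-week log2 fold change of 0.28 ± 0.10 missed the threshold (edgeR adjusted p = 0.354).

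Age was where Tgfbr1 differed among fresh cells. In cells labelled KO it was at 672 and 523 CPM at 10 weeks, against 386 and 400.3 CPM at 4 weeks, 1.52-fold higher (log2 0.61 ± 0.17, edgeR adjusted p = 0.0478). WT cells had 652 and 562 CPM at 10 weeks, against 452 and 434 CPM at 4 weeks, and there the log2 fold change of 0.45 ± 0.17 missed the threshold (edgeR adjusted p = 0.186). The older groups lay above the younger ones in both genotypes. The call in KO cells ended without KO replicate 1 at 10 weeks (log2 0.41, edgeR adjusted p = 0.271), without KO replicate 1 (0.58, adjusted p = 0.191) or 2 (0.63, adjusted p = 0.212) at 4 weeks, without both replicate 2 libraries at 10 weeks (0.78, adjusted p = 0.0567), with DESeq2 size factors (0.59, adjusted p = 0.0511), and with the 10-week pair exchanged (0.47, adjusted p = 0.0984). No value for KO against WT passed for Tgfbr1 at either age.

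**Figure D2:**
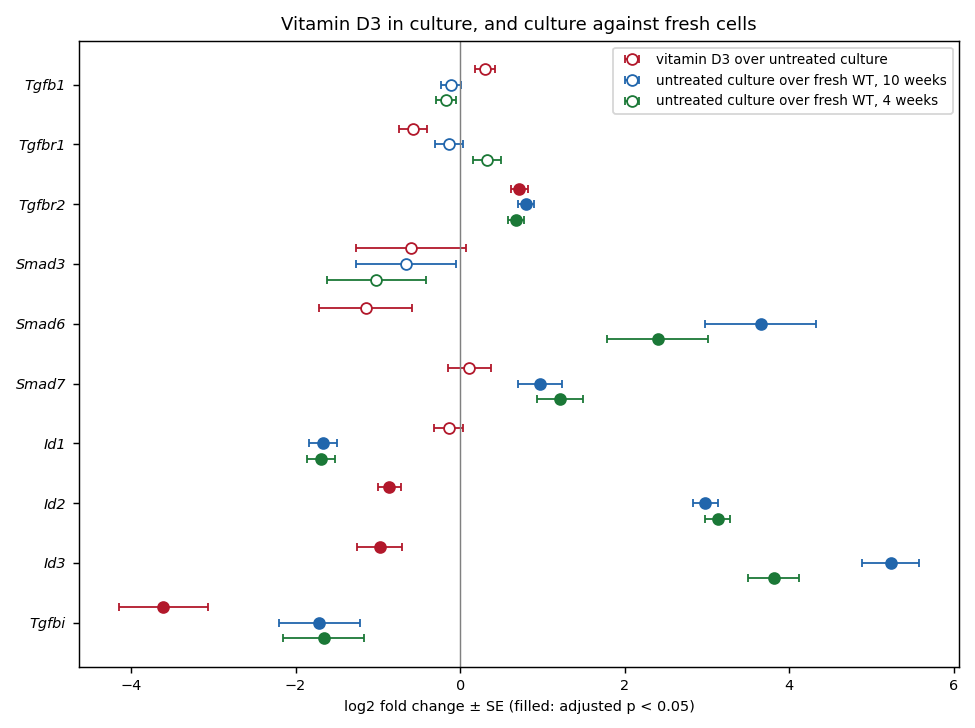
Log2 fold changes with SE of the 10 members for vitamin D3 against none in culture, and for untreated culture against fresh WT cells at 10 and 4 weeks; filled points passed an adjusted p of 0.05. Tgfbi fell in all 3 comparisons and Tgfbr2 rose in all 3, while Id2 and Id3 were higher in culture than in fresh cells and lower with vitamin D3 than without.

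Of the Smads, Smad3, which the type I receptor activates, was close to the limit of detection. It had 5 to 26 counts per library, or 0.246 and 0.421 CPM with vitamin D3, against 0.438 and 0.567 CPM in untreated culture. Cells labelled KO had 1.27 and 0.723 CPM, against 0.985 and 0.554 CPM in WT, at 10 weeks, and 0.387 and 0.42 CPM, against 0.908 and 1.11 CPM, at 4 weeks. The 2 KO libraries at 4 weeks held 7 and 6 counts, against 13 and 23 in WT. No comparison passed for Smad3, and at these counts only large differences could be detected.

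Smad6, the inhibitory Smad of the BMP branch, was low in fresh cells and higher in culture. It was at 11.5 and 11.7 CPM in untreated culture, against 0.148 and 1.9 CPM in 10-week and 2.65 and 1.79 CPM in 4-week WT cells. The log2 fold changes were 3.65 ± 0.68 (edgeR adjusted p = 0.00113) against 10 weeks and 2.40 ± 0.61 (edgeR adjusted p = 0.00825) against 4 weeks. WT replicate 1 at 10 weeks held 3 counts, and the value against 10 weeks was 6.23 without WT replicate 2 and 2.61 without WT replicate 1. Against 4 weeks the call ended without WT replicate 2 (2.13, edgeR adjusted p = 0.0647).

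With vitamin D3 Smad6 was at 4.23 and 6.32 CPM, below both untreated libraries, and the log2 fold change of -1.15 ± 0.57 missed the threshold (edgeR adjusted p = 0.255). KO cells had 0.293 and 0.452 CPM at 10 weeks (6 and 5 counts), against 2.43 and 1.54 CPM at 4 weeks (44 and 22 counts). Their log2 fold change with age of -2.48 ± 0.81 missed the threshold (edgeR adjusted p = 0.0799) but passed in 6 of 15 alternatives, DESeq2 among them (-2.49, adjusted p = 0.0123).

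Smad7, the inhibitory Smad that blocks the TGF-beta receptor, was at 10.7 and 8.99 CPM with vitamin D3, against 10.2 and 7.94 CPM in untreated culture, and these ranges overlapped. Fresh WT cells had 4.43 and 4.91 CPM at 10 weeks and 4.96 and 2.99 CPM at 4 weeks, below the cultured cells. Untreated culture was higher by log2 0.97 ± 0.27 against 10 weeks (edgeR adjusted p = 0.0139) and by 1.21 ± 0.28 against 4 weeks (edgeR adjusted p = 0.0046). The first call ended without untreated replicate 1 (0.77, edgeR adjusted p = 0.0969), without WT replicate 1 (0.90, adjusted p = 0.088), without both replicate 2 libraries at 10 weeks (1.04, adjusted p = 0.0523) and with no scaling factor between libraries (0.68, adjusted p = 0.0564). The second ended without WT replicate 2 (0.88, adjusted p = 0.05). Cells labelled KO had 3.36 and 4.25 CPM at 10 weeks and 4.54 and 5.18 CPM at 4 weeks.

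The 3 Id genes did not move alike in culture. Id1 fell, while Id2 and Id3 rose. Id1 was at 7.88 and 7.21 CPM in untreated culture, against 20.5 and 28 CPM in WT cells at 10 weeks and 22.9 and 25.8 CPM at 4 weeks. It was lower by 3.19-fold against 10 weeks (log2 -1.67 ± 0.17, edgeR adjusted p = 1.19e-05) and by 3.22-fold against 4 weeks (log2 -1.69 ± 0.17, edgeR adjusted p = 1.14e-05). With vitamin D3 it was at 6.59 and 7.17 CPM, next to the untreated libraries, with no call. KO cells had 19.6 and 18.9 CPM at 10 weeks and 24.3 and 24.1 CPM at 4 weeks, and no comparison of genotype or age passed.

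Id2, which is also known for its part in the development of innate lymphoid and dendritic cells, was at 411 and 369 CPM with vitamin D3, against 737 and 679.9 CPM in untreated culture. It was 1.82-fold lower with vitamin D3 (log2 -0.86 ± 0.14, edgeR adjusted p = 0.00244), by 1.79-fold and 1.84-fold within the pairs, and passed in all 12 alternatives. Untreated culture was in turn 7.87-fold above WT cells at 10 weeks, which had 101 and 78.3 CPM (log2 2.98 ± 0.15, edgeR adjusted p = 1.35e-07). It was 8.74-fold above WT cells at 4 weeks, which had 79.2 and 82.9 CPM (log2 3.13 ± 0.15, edgeR adjusted p = 1.15e-07). Cells with vitamin D3 thus stood between the untreated and the fresh cells.

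In fresh cells labelled KO, Id2 was at 109 and 136 CPM at 10 weeks, against 84.6 and 74.8 CPM at 4 weeks, 1.54-fold higher (log2 0.62 ± 0.14, edgeR adjusted p = 0.0213). This call ended without KO replicate 2 at 10 weeks (0.45, adjusted p = 0.136), without KO replicate 1 (0.71, adjusted p = 0.0695) or 2 (0.53, adjusted p = 0.193) at 4 weeks, without both replicate 2 libraries at 10 weeks (0.45, adjusted p = 0.0979), and with the 10-week pair exchanged (0.43, adjusted p = 0.238). Epithelial markers moved in the same comparison, at 348 to 477 CPM in KO at 10 weeks, against 149 to 344 CPM in KO at 4 weeks, with 8 of 10 values above 0 and 2 genes higher, and their part in the levels of Id2 and Tgfbr1 was not tested. Against WT at 10 weeks, both KO libraries lay above both WT ones and the log2 fold change of 0.44 ± 0.14 missed the threshold (edgeR adjusted p = 0.311). It was 0.02 with the 10-week pair exchanged (adjusted p = 0.998), where the groups overlap, and it passed in 1 of 14 alternatives, that with no filter on low counts (adjusted p = 0.0362).

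Id3 had the widest range of the Id genes, and its 6 groups did not overlap between any neighbours in the order of its level. It was at 80.8 and 84.7 CPM with vitamin D3, against 156 and 169 CPM in untreated culture, 1.97-fold lower (log2 -0.98 ± 0.27, edgeR adjusted p = 0.0402). The sizes within the pairs were 1.94-fold and 2-fold. The call ended when any 1 of the 4 culture libraries was left out (log2 -1.03 to -0.92, adjusted p from 0.101 to 0.212) and with DESeq2 (adjusted p = 0.344).

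Untreated culture held 37.5-fold more Id3 than WT cells at 10 weeks, which had 4.87 and 3.64 CPM (log2 5.23 ± 0.35, edgeR adjusted p = 6.22e-07). Against WT cells at 4 weeks, which had 14.5 and 8.88 CPM, it was 14.1-fold higher (log2 3.81 ± 0.31, edgeR adjusted p = 3.04e-06). The summed level of 8 markers of monocytes and interstitial macrophages was 26.2 to 29.8 CPM in untreated culture, against 25.1 to 27.1 CPM in WT cells at 10 weeks and 13.6 to 20.4 CPM at 4 weeks. The part of such cells in the levels of the Id genes was not tested. In bulk libraries, fewer cells of a type and less RNA per cell cannot be told apart.

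Among fresh cells, Id3 was the member that differed by genotype. The 4-week levels were 2.38 and 1.96 CPM in KO (43 and 28 counts), against 14.5 and 8.88 CPM in WT (208 and 184 counts), 5.27-fold lower (log2 -2.40 ± 0.38, edgeR adjusted p = 0.0166). The 10-week levels were 1.12 and 0 CPM in KO (23 and 0 counts), against 4.87 and 3.64 CPM in WT (99 and 46 counts). A count of 0 in KO replicate 2 allows up to 0.271 CPM, taking 3 counts as the limit. The 10-week log2 fold change of -2.60 ± 0.53 missed the threshold (edgeR adjusted p = 0.107). Both KO libraries lay below both WT libraries at each age.

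Over both ages Id3 was 5.65-fold lower in KO (log2 -2.50 ± 0.32, edgeR adjusted p = 0.00504), and the 4 KO libraries, at 0 to 2.38 CPM, lay below the 4 WT libraries, at 3.64 to 14.5 CPM. This call remained when any 1 of the 8 fresh libraries was left out (edgeR adjusted p from 0.0011 to 0.0435) and ended when the 10-week pair was exchanged (log2 -1.52, adjusted p = 0.449). Leaving out KO replicate 1 at 10 weeks keeps only the library with 0 counts and gave -5.76, a fitted value that is no bound. The 4-week call alone ended without WT replicate 1 (-2.01, adjusted p = 0.116), KO replicate 1 (-2.55, adjusted p = 0.154) or KO replicate 2 (-2.27, adjusted p = 0.214). At 10 weeks Id3 passed with DESeq2 (-2.76, adjusted p = 0.00936) and was at -0.64 with the pair exchanged (adjusted p = 0.993). The difference between the ages in the KO effect, -0.20 ± 0.68, did not pass (edgeR adjusted p = 0.965).

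Id3 was also lower at 10 than at 4 weeks in both genotypes, by log2 -1.61 ± 0.59 in KO (edgeR adjusted p = 0.11) and by -1.41 ± 0.35 in WT (edgeR adjusted p = 0.0596). Neither passed, although both older groups lay below the younger group of the same genotype. These age comparisons share their libraries with the genotype comparisons.

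Marker sums of other cells differed in both directions in the libraries where Id3 was lower, and most of their single genes did not pass. The 8 dendritic cell markers summed to 17.8 to 18.6 CPM in KO, against 38 to 49.4 CPM in WT, at 10 weeks, and to 8.8 to 10.3 CPM, against 21.1 to 53.1 CPM, at 4 weeks. There Cd209a was at 0 counts in both KO libraries, against 3 and 4 counts in WT, too few to tell a difference. Of 6 tested markers of this list, 0 passed at either age and 1 was lower over both ages. The 8 monocyte and interstitial macrophage markers summed to 15.2 to 16.5 CPM in KO, against 25.1 to 27.1 CPM in WT, at 10 weeks, and to 8.69 to 12.5 CPM, against 13.6 to 20.4 CPM, at 4 weeks. The 8 erythroid markers summed to 48.5 to 53.4 CPM in KO, against 71 to 161 CPM in WT, at 10 weeks, and to 348 to 644 CPM, against 1332 to 3151 CPM, at 4 weeks. The 7 T and NK cell markers summed to 203 to 236 CPM in KO, against 238 to 252 CPM in WT, at 10 weeks, and to 129.7 to 138 CPM, against 184 to 208 CPM, at 4 weeks. Nearly all of this sum was Cd2, at 234 and 202 CPM in KO, against 236 and 246 CPM in WT, at 10 weeks. At 4 weeks Cd2 was at 128 and 137 CPM in KO, against 204 and 182 CPM in WT. Higher in KO at 10 weeks were the 10 epithelial markers, at 348 to 477 CPM, against 257 to 309.9 CPM in WT, of which 8 had values above 0 and 1 passed (median log2 1.67). Neutrophil markers were higher there too, at 69.4 to 71.4 CPM in KO, against 54.1 to 55.6 CPM in WT. At 4 weeks the epithelial sums overlapped, at 149 to 344 CPM in KO, against 124 to 201 CPM in WT, and the neutrophil sums were lower in KO, at 46.6 to 52.5 CPM, against 58.8 to 63.7 CPM. Most of the neutrophil sum was Csf3r, at 36.9 and 38.3 CPM in KO, against 51.8 and 57.7 CPM in WT, at 4 weeks. S100a8 went the other way there, at 7.19 and 10.3 CPM in KO, against 3.14 and 4.39 CPM in WT. Fibroblast and smooth muscle markers summed to 6.75 to 9.39 CPM in KO, against 5.07 to 6.01 CPM in WT, at 4 weeks, and overlapped at 10 weeks. Of these, Acta2 was higher in KO at 4 weeks, at 4.65 and 6.1 CPM, against 2.17 and 1.16 CPM in WT. Tagln was lower there, at 1.83 and 2.17 CPM in KO, against 3.21 and 3.33 CPM in WT. Endothelial markers summed to 164 to 176 CPM in KO, against 112 to 127 CPM in WT, at 4 weeks, and overlapped at 10 weeks. Nearly all of this sum was Vwf, at 176 and 164 CPM in KO, against 111 and 127 CPM in WT, at 4 weeks. Only 1 of the 8 endothelial markers passed the filter on low counts. B cell markers summed to under 6 CPM in all 8 libraries. The 21 immediate early genes, which respond within minutes to handling and stimulation of cells, summed to 1925 and 1938 CPM in KO, against 3115 and 2658 CPM in WT, at 4 weeks. Of 20 tested, 19 had values below 0 there and 2 passed, Btg2 (log2 -1.12 ± 0.17, edgeR adjusted p = 0.0123) and Jund (-0.65 ± 0.13, edgeR adjusted p = 0.0496). At 10 weeks their sums overlapped, at 3109 and 2462 CPM in KO, against 3573 and 2384 CPM in WT. The part of other cells or of immediate early gene state in the level of Id3 was not tested.

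**Figure D3:**
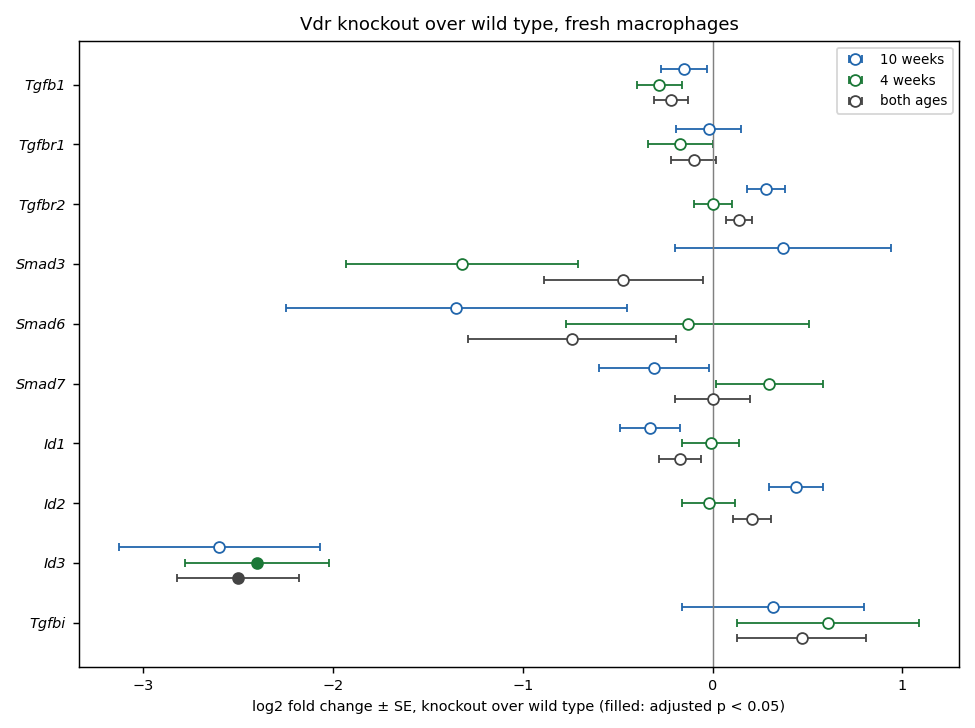
Log2 fold changes with SE of the 10 members for cells labelled KO against WT at each age and averaged over the ages; filled points passed an adjusted p of 0.05. Id3 was lowest in all 3 comparisons and passed at 4 weeks and over both ages.

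Tgfbi encodes a secreted extracellular matrix protein that binds integrins and was the member that fell most with vitamin D3. It was at 26 and 12.1 CPM with vitamin D3, against 383 and 87.9 CPM in untreated culture. Both treated libraries lay below both untreated ones, although the untreated ones lay far apart. The difference was 12.2-fold (log2 -3.61 ± 0.54, edgeR adjusted p = 0.00136), 14.7-fold within 1 pair and 7.28-fold within the other. It passed in all 12 alternatives, and was -2.18 without untreated replicate 1 and -4.31 without untreated replicate 2.

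In untreated culture Tgfbi was already below fresh WT cells, which had 744 and 805 CPM at 10 weeks and 816 and 672 CPM at 4 weeks. The log2 fold changes were -1.71 ± 0.49 (edgeR adjusted p = 0.0148) and -1.66 ± 0.49 (edgeR adjusted p = 0.0189). They depended on the untreated library, with -3.14 and -3.08 without replicate 1 and -1.01 and -0.95 without replicate 2. The calls ended in fits of only the groups compared (adjusted p = 0.0544 and 0.0623), without WT replicate 2 at 10 weeks (-1.65, adjusted p = 0.0531) or both replicate 2 libraries there (-1.65, adjusted p = 0.0654), and without WT replicate 1 at 4 weeks (-1.53, adjusted p = 0.0744).

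Fresh cells labelled KO had more Tgfbi reads than WT at both ages, without passing the test. They had 955 and 980.3 CPM at 10 weeks and 1155 and 1116 CPM at 4 weeks, all above the 4 fresh WT libraries, which was so for 2.27% of all genes. With the 10-week pair exchanged, the ranges of the 4 KO and the 4 WT libraries overlap for Tgfbi, Tgfb1 and Id3 alike. The log2 fold changes were 0.32 ± 0.48 at 10 weeks (edgeR adjusted p = 0.888), 0.61 ± 0.48 at 4 weeks (edgeR adjusted p = 0.675) and, as the mean of the ages, 0.47 ± 0.34 (edgeR adjusted p = 0.62). In fits of only the fresh groups compared, where the culture libraries do not enter the spread, the same difference passed at 4 weeks (edgeR adjusted p = 0.00458, where 5.29% of all genes passed) and for both ages together (edgeR adjusted p = 0.0123, where 2.18% did).

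The wider pathway was read from 8 lists with 85 genes in all, of which 62 passed the filter on low counts and were tested. With vitamin D3, 9 of these 62 were higher and 11 lower, with a median log2 fold change of -0.16 beside 0 for all genes, and 10.6% of all genes passed there. In untreated culture, 18 were higher and 19 lower than in WT cells at 10 weeks (median -0.12), and 18 were higher and 13 lower than in WT cells at 4 weeks (median 0.09), beside -0.02 for all genes, of which 42.4% passed against 10 weeks and 39.7% against 4 weeks. The counts of each list below are to be read against these shares. In KO against WT, 1 was higher at 10 weeks, 1 was lower at 4 weeks, and 1 was higher and 2 lower over both ages, where 0.11%, 0.667% and 0.996% of all genes passed in turn. From 10 against 4 weeks, 9 were higher in KO cells (9.73% of all genes passed) and 0 passed in WT cells (2.11%), where 18 had an unadjusted p under 0.05 and 5 passed with DESeq2.

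Among 9 tested genes for TGF-beta ligands, latency proteins and activators, 1 was higher and 3 were lower with vitamin D3 (median -0.47). Ltbp3, which tethers latent TGF-beta to the matrix, was at 35.3 and 23 CPM with vitamin D3, against 7.5 and 7.04 CPM in untreated culture (4-fold higher, edgeR adjusted p = 0.000505). Itgb5, a chain of an integrin that can activate latent TGF-beta, was at 192 and 176 CPM, against 434 and 306 CPM (log2 -1.01 ± 0.15, edgeR adjusted p = 0.00132). Lrrc33, which anchors latent TGF-beta on myeloid cells, was lower by log2 -0.50 ± 0.11 (edgeR adjusted p = 0.0141), kept in 9 of 12 alternatives. Against fresh WT cells, untreated culture had more Ltbp3 at both ages (log2 2.55 and 2.12) and less Furin, the protease that cuts the precursors (-1.26 and -1.19). Of 9, 3 were higher and 2 lower against 10 weeks and 2 were higher and 1 lower against 4 weeks.

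Of 17 genes for BMPs, activins, GDFs and their antagonists, 5 were read at levels that could be tested. With vitamin D3, 1 was higher and 0 were lower. Gdf15, a divergent family member and stress-responsive cytokine, was at 601 and 600.1 CPM with vitamin D3, against 41.2 and 80.9 CPM in untreated culture, 9.89-fold higher (edgeR adjusted p = 3.45e-05). In untreated culture, 4 of 5 were higher than in 10-week WT cells and 2 of 5 higher than in 4-week WT cells. Fstl1, a secreted protein that binds BMPs, was at 34.9 and 246 CPM in untreated culture, against 1.33 and 0.396 CPM in WT cells at 10 weeks (log2 7.18 ± 1.14, edgeR adjusted p = 0.000388) and 5.73 and 4.73 CPM at 4 weeks (log2 4.75 ± 0.92, edgeR adjusted p = 0.00162). The untreated libraries were far apart for Fstl1, and its call against 10 weeks was kept in 13 of 14 alternatives.

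Of 11 tested receptor and co-receptor genes, Tgfbr2 was the 1 that was higher with vitamin D3, and 10 of 11 had values below 0 (median -0.40). The 2 that were lower were type I receptors, Acvrl1 (20.4 and 25.8 CPM, against 38.1 and 38.1 CPM, log2 -0.73 ± 0.14, edgeR adjusted p = 0.00556) and Acvr1 (12.6 and 13 CPM, against 23.4 and 17.7 CPM, log2 -0.69 ± 0.15, edgeR adjusted p = 0.0103). Acvrl1 kept its call in 11 of 12 alternatives and Acvr1 in 9. Against fresh WT cells at 10 weeks, Tgfbr2 was likewise the 1 receptor gene that was higher in untreated culture, and 5 were lower. The activin receptor gene Acvr1b was at 52.4 and 52.6 CPM in untreated culture, against 124 and 129 CPM in those WT cells (log2 -1.26 ± 0.12, edgeR adjusted p = 6.74e-06). Acvrl1 was lower by -0.87 ± 0.13 (edgeR adjusted p = 0.000305). Against 4 weeks, 1 was higher and 2 were lower. With no scaling factor between libraries, the median of all genes in both comparisons of culture with fresh cells moved by -0.29.

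All 8 Smad genes were tested, and 2 were higher and 0 lower with vitamin D3. Smad2, the partner of Smad3, was at 101 and 93.9 CPM, against 69.2 and 65.4 CPM (log2 0.53 ± 0.09, edgeR adjusted p = 0.00345), kept in 11 of 12 alternatives. Smad4, the shared partner of all activated Smads, was at 66.6 and 62.1 CPM, against 52 and 48.4 CPM (log2 0.36 ± 0.10, edgeR adjusted p = 0.0389), a call kept in 6 of 12 alternatives. In untreated culture, the 2 Smads higher than in WT cells at 10 weeks were the inhibitory Smad6 and Smad7. Against 4 weeks Smad5 and Smad9 of the BMP branch were higher as well, Smad9 at 1.97 and 1.94 CPM in untreated culture, against 0 and 0.241 CPM in WT cells (edgeR adjusted p = 0.0197). The call of Smad5 was kept in 7 of 13 alternatives (adjusted p up to 0.425) and that of Smad9 in 9 of 12 (up to 0.101).

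Of 12 Smad modulators, 1 was higher and 2 were lower with vitamin D3. Pmepa1, a membrane protein that limits Smad2 and Smad3 and is itself a TGF-beta target, was at 139 and 65.1 CPM with vitamin D3, against 12.3 and 8.99 CPM in untreated culture, 9.54-fold higher (edgeR adjusted p = 9.18e-05). Smurf2, a ubiquitin ligase for Smads and receptors, was lower by log2 -0.68 ± 0.12 (edgeR adjusted p = 0.00351), as was the co-repressor gene Skil, by -0.61 ± 0.16 (edgeR adjusted p = 0.036), a call kept in 8 of 12 alternatives (adjusted p up to 0.3). Untreated culture had less Pmepa1 than WT cells at 10 weeks, which had 79.5 and 95.5 CPM (log2 -3.02 ± 0.32, edgeR adjusted p = 2.04e-05), and at 4 weeks, which had 80.2 and 95.6 CPM (-3.03 ± 0.32, edgeR adjusted p = 2.05e-05). The co-repressor gene Ski was lower by -1.41 and -1.35 and Tgif1 higher by 1.07 and 1.08 in these comparisons. In all, 5 modulators were higher and 3 lower against 10 weeks, and 5 were higher and 2 lower against 4 weeks.

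The targets in the TGF-beta list changed in both directions. With vitamin D3, 3 of 15 were higher and 3 lower (median 0.11). Against the fall of Tgfbi stood the rise of Pmepa1 and of Spp1, the matrix protein osteopontin, which was at 4230.2 and 1542 CPM with vitamin D3, against 877 and 493 CPM in untreated culture (log2 2.08 ± 0.43, edgeR adjusted p = 0.00993), kept in 9 of 12 alternatives (adjusted p up to 0.115). In untreated culture, 2 of 15 were higher and 7 lower than in WT cells at 10 weeks (median -0.52), and 4 were higher and 7 lower than at 4 weeks (median -0.31). Itgae, the alpha chain of the integrin CD103, had 2 counts in each untreated library, against 6.99 and 5.14 CPM in WT cells at 10 weeks (edgeR adjusted p = 1.02e-05).

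Itgae was lower in KO cells over both ages (log2 -1.40 ± 0.28, edgeR adjusted p = 0.043), a call kept in 8 of 19 alternatives. Over these alternatives the log2 fold change ran from -1.53 to -0.68. Itgae levels of 10-week KO libraries were 1.8 and 1.72 CPM, those of WT libraries 6.99 and 5.14 CPM. Once the 10-week pair is exchanged, these ranges overlap. Dendritic cell marker sums were lower in KO than in WT cells at both ages too, and their part in the level of Itgae was not tested. With age in KO cells, Tgfb2, another TGF-beta ligand gene, was higher. It was at 16.1 and 25.9 CPM at 10 weeks, against 1.27 and 0.911 CPM at 4 weeks, in KO cells (log2 4.24 ± 0.50, edgeR adjusted p = 0.000662). The co-receptor gene Eng rose too, to 3.36 and 4.52 CPM, against 0.221 and 0.701 CPM (log2 3.12 ± 0.58, edgeR adjusted p = 0.00737), a call kept in 12 of 14 alternatives. WT cells had 3.45 and 4.12 CPM of Eng at 10 weeks, against 1.4 and 0.966 CPM at 4 weeks. Their Tgfb2 levels were 4.83 and 4.67 CPM at 10 weeks, against 2.59 and 2.17 CPM at 4 weeks. Neither gene passed with age in WT cells. With age in KO cells the 10 epithelial markers had a median log2 fold change of 1.28, beside 0.01 for all genes, and their part in Tgfb2 and Eng was not tested.

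The 11 BMP target genes include 5 of the 10 members, and 7 of the list were tested. In untreated culture 5 of the 7 were higher and 1, Id1, was lower than in WT cells, with medians of 2.98 against 10 weeks and 2.40 against 4 weeks. The 1 that is no member was Hey1, a transcriptional repressor that Notch also induces. It was at 12.4 and 7.13 CPM in untreated culture, against 1.18 and 0.158 CPM in WT cells at 10 weeks (log2 3.68 ± 0.63, edgeR adjusted p = 0.000656) and 1.33 and 0.193 CPM at 4 weeks (3.84 ± 0.64, edgeR adjusted p = 0.000585). With vitamin D3, 1 was higher and 2 were lower (median -0.86). Hey1 was the higher one, at 60 and 40.3 CPM, against 12.4 and 7.13 CPM (log2 2.35 ± 0.47, edgeR adjusted p = 0.00828, kept in 9 of 12 alternatives), while Id2 and Id3 were lower. Of the E proteins, which Id proteins bind, Tcf3 was lower in untreated culture than in WT cells at 10 weeks (-0.65 ± 0.12, edgeR adjusted p = 0.00141) and at 4 weeks (-0.62 ± 0.12, edgeR adjusted p = 0.00187), and no E protein gene passed with vitamin D3.

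**Figure D4:**
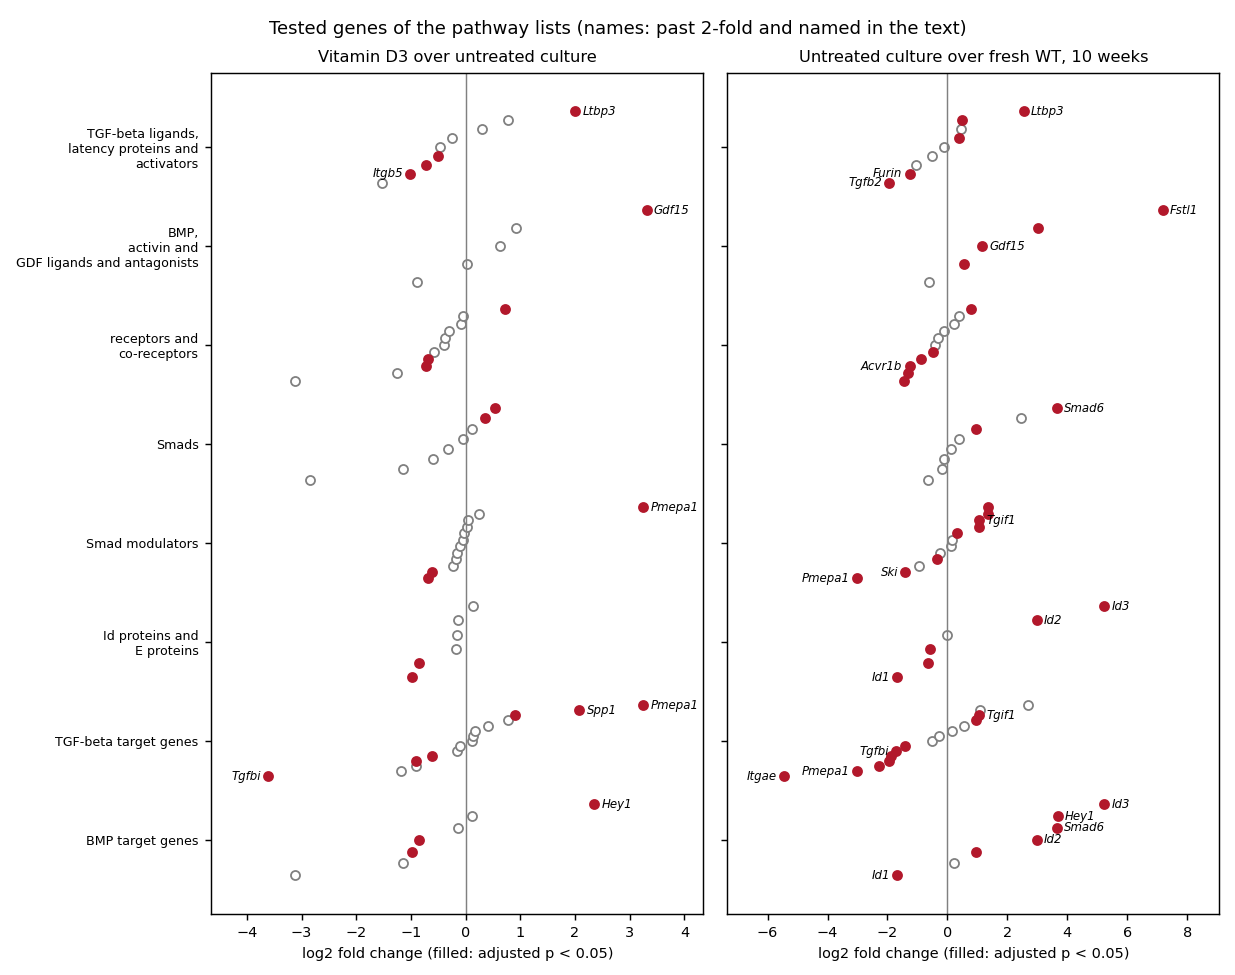
Log2 fold changes of the tested genes of the 8 pathway lists for vitamin D3 against none in culture and for untreated culture against fresh WT cells at 10 weeks, 1 point per gene; filled points passed an adjusted p of 0.05 and the named ones also passed 2-fold. With vitamin D3, Gdf15, Pmepa1, Hey1, Spp1 and Ltbp3 were the named genes above 2-fold and Tgfbi lay farthest below 0 at -3.61.

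The levels of the members can be put in order over the 6 groups by their means. Id3 ran from untreated culture (163 ± 9.09 CPM, SD, n = 2) through vitamin D3 (82.7 ± 2.76), WT at 4 weeks (11.7 ± 3.99), WT at 10 weeks (4.26 ± 0.872) and KO at 4 weeks (2.17 ± 0.295) to KO at 10 weeks (0.561 ± 0.793). Id2 ran from untreated culture (708 ± 40.4 CPM, SD, n = 2) through vitamin D3 (390 ± 29.6) and KO at 10 weeks (123 ± 19.1) to the other 3 fresh groups, which overlapped their neighbours at 79.7 to 89.9 CPM. Tgfbi ran the other way, from KO at 4 weeks (1136 ± 28.1 CPM, SD, n = 2) and KO at 10 weeks (968 ± 18) through the overlapping WT groups (774 ± 43.3 at 10 and 744 ± 102 at 4 weeks) to untreated culture (236 ± 209) and vitamin D3 (19 ± 9.85). Tgfbr2 was at 1581 ± 132 CPM with vitamin D3, 961 ± 55.6 in untreated culture and 552 to 669 CPM in the fresh groups, of which the 4-week ones overlapped. Id1 was at 24.2 to 24.4 CPM in 3 overlapping fresh groups, at 19.2 ± 0.471 in KO at 10 weeks, 7.54 ± 0.476 in untreated culture and 6.88 ± 0.407 with vitamin D3. Smad7 and Smad6 separated cultured from fresh cells, and the fresh groups of each overlapped their neighbours.

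For the 3 members that passed in a comparison of fresh cells, the genes with the most similar pattern over the 8 fresh libraries were taken from 9269 or 9270 tested genes at 5 CPM or more on average. Id3 was most like Enpp1 (Pearson r = 0.961), Tra2a (0.961) and Tor3a (0.954). Tgfbr1 was most like Cep170 (0.984), Pde4dip (0.979) and Tnfsf13b (0.979), and Id2 most like Zc3h7b (0.975), Cyp4v3 (0.972) and Rab31 (0.964). These values describe 8 libraries in 4 groups, and the best of so many genes are high by selection.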

How the data were processed

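There were 12 RNA-seq libraries. The authors deposited raw gene counts (23413 genes, columns named by library title) and a log2 table of 10631 genes, log2(CPM + 1) per the values, which holds 7 of the 10 members and was used only for a check at 10 weeks. Per the labels' protocols, RNA came from an RNeasy Micro kit and libraries from a KAPA mRNA HyperPrep kit. TopHat2, edgeR and build mm9 are named per the submitters' processing notes. For versions, counting program, strandedness and gene models, the sources used here give nothing, and reads of overlapping or antisense genes cannot be told apart.

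The counts were fitted with edgeR 4.0.16 (R 4.3.3) by its quasi-likelihood F test, with TMM scaling, filterByExpr by group (at least 10 counts, and 15 in total) and 1 coefficient for each of 6 groups over all 12 libraries, with 6 residual degrees of freedom. Of the genes, 12748 were tested in 9 contrasts, and Benjamini-Hochberg adjustment ran over all of them. CPM are counts over TMM effective library sizes. Means carry the SD of 2 libraries, and log2 fold changes their SE. Depth limits low genes, and a limit of 3 counts covers counting error only. Fold changes of single pairs are ratios of CPM. The culture pairs follow neighbouring titles, and 1 of them joins libraries labelled with unlike replicate numbers. The code was tested on simulated counts. Alternatives were DESeq2 1.42.0, its size factors, no filter or a strict one (5 CPM in 2 libraries), only the groups compared, a replicate block, the series of title numbers as a term, the exchange of the 10-week pair in conflict and leaving out each library. Chosen after seeing the data were no scaling factor, leaving out both replicate 2 libraries at 10 weeks, and a crossed block at 4 weeks.

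The members and all lists were chosen with earlier results of these data known. All 10 members are named, and from each pathway list up to 3 other genes per contrast past the threshold with the smallest p, and 2 of the immediate early genes, except for a result that is not reported here. Xist and the single cell type markers, such as Cd209a, were named after their values were seen. Likeness was taken over the 8 fresh libraries among genes with a mean of at least 5 CPM.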

Additional observations from a re-analysis of the deposited data

How the results depend on the processing

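Of the members' fold changes followed under alternatives, 455 values kept direction and side of the threshold, 31 no longer passed, 32 newly passed and 6 reversed. Where not stated, the cause was not tested. The number of members past the threshold moved as follows, and the share of all genes that passed also moved. That share was 2.85%, 3.92% and 4.49% with no filter for KO against WT at 10 weeks, at 4 weeks and for both (main 0.11%, 0.667% and 0.996%), and 5.29% at 4 weeks and 2.18% for both with only the groups compared. With age it was 11.7% in KO and 6.94% in WT with no filter (main 9.73% and 2.11%), and 5.01% in WT with only the groups compared. KO against WT at 10 weeks (0) gave 1 with DESeq2, 2 with no filter and 0 to 1 leaving out a library. At 4 weeks (1) it gave 2 with no filter, 2 with only the groups compared and 0 to 1 leaving out a library, and over both ages (1) it gave 2, 2 and, with the 10-week pair exchanged, 0. At 10 against 4 weeks in KO (2) it gave 1 with DESeq2 size factors, 4 with no filter, 0 with the exchange, 1 without both replicate 2 libraries at 10 weeks and 0 to 2 leaving out a library. In WT (0) it gave 2 with no filter, 2 with only the groups compared, 1 with the exchange, 1 without both replicate 2 libraries and 0 to 1 leaving out a library (1 without WT replicate 2 at 10 weeks). In culture it stayed at 3 to 4 for vitamin D3 (main 4), and at 6 to 7 and 5 to 8 against fresh WT at 10 and 4 weeks (main 7), leaving out a library. Reversed values were those of Tgfbr2 in KO at 10 weeks (0.28), -0.03 with the exchange, and of the Id3 difference between ages (-0.20), 1.75 with the exchange, 0.28 without both replicate 2 libraries and -6.73 to 0.45 leaving out a library. With the replicate block, Id3 (log2 -1.48, edgeR adjusted p = 0.0271) and Tgfbr1 (0.45, adjusted p = 0.0379) passed in WT with age, for 2 calls, and 2 with the crossed block. The log2 CPM difference between KO replicates correlated with that between WT replicates at 0.12 at 10 weeks and -0.12 at 4 weeks. In culture, the same value for the treated and the untreated libraries was 0.27, in each case over all genes tested. For KO against WT the block moved the calls over all genes to 39 at 10 weeks (main 14) and 146 at 4 weeks (main 85), and the crossed block to 277 at 4 weeks. In the deposited log2 table all 7 members present had the same direction at 10 weeks. Depth limits Smad3, Smad6 and Id3 in fresh cells.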
